A study of Mus musculus with 6 samples.

Results

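Conventional natural killer (NK) cells were examined among CD45+ immune cells sorted from the livers of Balb/c mice injected into the heart with cells of the mouse mammary tumour line 4T07. The members were the cells whose mean deposited score over Ncr1, Klra7, Klri2 and Eomes was above 1.5 while the mean score of Cd3e and Cd3g, which encode chains of the T cell receptor complex, was below 1. This rule took 469 of 23008 cells, or 2.04%. The injected tumour cells carried either a control vector with a scramble hairpin (Ctrl) or an shRNA against Tim3, the gene Havcr2 (Tim3-KD), so the knockdown lay in the tumour cells and the immune cells came from unmodified hosts. There were 6 libraries, 1 for each group, and each was a pool of 2 mice. Liver labelled as free of tumour (adjacent) and liver at the micrometastasis time point were taken on day 3 in both arms, and liver at the macrometastasis time point was taken on day 12 in both arms.

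NK cells are lymphocytes that kill target cells without a rearranged antigen receptor, by releasing perforin and granzymes. Their response is set by a balance of activating receptors, such as NKp46 and NKG2D, and inhibitory receptors that read MHC class I, among them members of the Ly49 family in mice. In liver, circulating NK cells that depend on Eomes share the tissue with resident type 1 innate lymphoid cells (ILC1), and both produce interferon gamma. As mouse NK cells mature they lose CD27 and gain CD43 and Ly6C.

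Because every group was 1 library, no spread between replicates could be measured and no test between groups was made. The range given with a level, share or ratio is a 95% interval that covers counting error only. It is exact Poisson for a sum, exact binomial (Clopper-Pearson) for a share and exact conditional for a ratio. The range given with a median over single cells is that of the lowest and highest cell. With a median fold over libraries it is that of the lowest and highest library. Levels are UMIs (unique molecules) of a gene summed over the NK cells of a library and divided by all UMIs of those cells, in UMIs per 1000000 (CPM). A lower level in such a sum can come from fewer cells that carry the gene or from less of it in each cell, so values of single cells are given for the cytotoxic genes. Genes are called at least 2-fold apart when they had 20 or more UMIs over both libraries and a ratio of 2 or more or of 0.5 or less.

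The libraries held between 542 and 5502 cells, and the adjacent Tim3-KD library was the smallest. Median UMIs per cell over whole libraries ran from 6300 to 10248, and those of the NK cells from 3261 in micro Ctrl to 12060 in adjacent Tim3-KD. Barcodes present in another library as well numbered from 4 to 27 per library, none of them in an NK cell. The NK cells included 19 cells over 20000 UMIs and 135 cells under 3000 UMIs.

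The label of the cells was looked at on genes the rule did not use, although these were measured in the same cells and so describe the members without testing the label. Gzma, the granzyme given as a marker of these cells, had a UMI in 421 of 469 members, and Klrd1, which encodes the CD94 receptor chain, had one in 426. Of the 4 marker genes, 78 members carried 1, 177 carried 2, 149 carried 3 and 65 carried all 4. Ncr1 (NKp46) was the only marker found in 51 of the 78 cells with 1 marker. Just inside the threshold, at a marker mean of 1.5 to 1.75, there were 29 cells, of which 22 had Gzma and 24 had Klrd1. Just outside it, at 1.25 to 1.5, there were 29 cells, of which 20 had Gzma and 24 had Klrd1.

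The genes that stood highest over the other cells of the same library were those of killing, chemokines and NK receptors. Over the 5 libraries with at least 20 members, Gzma was a median of 191-fold (107 to 353) above the other cells, Ccl5, a chemokine that draws lymphocytes, 69.3-fold (44.1 to 83.7) and Prf1, which encodes perforin, 49.6-fold (16.9 to 69.8). Klra3, a Ly49 receptor, was 40.7-fold higher, Klrd1 30.7-fold, Gzmb 30.2-fold, Klre1 30.1-fold, Il2rb, the shared beta chain of the IL-2 and IL-15 receptors, 27.6-fold and Xcl1, a chemokine that draws cross-presenting dendritic cells, 26.7-fold. The other leading genes were Ncr1 and Eomes, which the rule used, Sytl3, the serpin gene Serpinb6b, Cd7 and Txk, a Tec-family kinase. These folds describe cells chosen on the same scores and carry no test.

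On GRCm38, Gzma lies at chr13:113093825-113100981, Gzmb at chr14:56258838-56262260 and Ccl5 at chr11:83525778-83530518, all on the minus strand, and Prf1 lies at chr10:61297833-61304680 on the plus strand. The NK receptor gene region, chr6:128609227-130337574, held 3 of the 15 leading genes and 9 of the 40 leading genes, against 24 of 5067 genes (0.474%) of the matrices with a position in the annotation. Of these 9 genes Klra7 and Klri2 were part of the rule, so the count partly restates how the cells were chosen. Ly49 genes are near-identical copies whose reads can be split between them, and the Balb/c set differs from that of the reference strain, so the values of Klra3 and Klra7 are uncertain.

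The T cell markers summed to 973 to 1466 CPM in the members of the 6 libraries and to 4503 to 6559 in T cells. Over all 469 there were 2 UMIs of Cd3e, none of Cd4, 2 of Cd8a and 2 of Cd5, against 5537, 750, 1507 and 1236 UMIs in the 1836 T cells of the same libraries, and Cd3e was part of the rule. Trac, the constant chain of the alpha receptor, had 53 UMIs in members and 5200 in T cells. Trbc1 carried most UMIs, with 403 to 793 CPM in the NK cells of the 6 libraries against 740 to 1271 in T cells, and its reads can be split with Trbc2. Trdc, the constant chain of the delta receptor, was higher in NK cells, at 101 to 185 against 5.54 to 65.8. A Cd3 UMI was found in 59 members. A further 120 cells passed the NK markers but not the Cd3 limit and were left out, and each of them had a Cd3 UMI.

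Against the same T cells, Gzma ran from 5690 to 12748 CPM in NK cells and from 5.60 to 1282 in T cells, and Prf1 from 281 to 1182 against 11.9 to 178. The ranges of the cell types did not overlap for either gene. Irf8, a transcription factor of the interferon regulatory family, stood at 419 to 1535 in NK cells against 19.6 to 106. In the micro and macro libraries, Ifng, which encodes interferon gamma, overlapped, at 241 to 358 in NK cells and 234 to 287 in T cells. Il7r was lower in NK cells there, at 16.1 to 55.3 against 162 to 344, as was the checkpoint gene Ctla4, at 5.70 to 15.2 against 192 to 246. Havcr2, the gene that was knocked down in the tumour cells, had 10 UMIs in all NK cells together, 2 of them in micro Ctrl, 4 in macro Ctrl and 4 in macro Tim3-KD, and no difference between the arms was detectable at this depth.

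Of the genes used to look for ILC1, Itga1, the CD49a integrin, and the chemokine receptor Cxcr6 were sparse, with 22 and 58 UMIs over all members. Cd160 was not, with a UMI in 13.3% of members in micro Ctrl, the lowest library, and 46.2% in micro Tim3-KD, the highest. A search for ILC1 by the scores of Itga1, Cd160 and Cxcr6 took 254 cells whose leading genes were endothelial (Ptprb, Clec4g, Aqp1 and Kdr), so these cells could not be called ILC1 and were not compared. Members without an Eomes UMI carried 16 of the 19 Cxcr6 UMIs in micro Ctrl, all 18 in macro Ctrl and 8 of 9 in macro Tim3-KD, which describes a split on a gene of the rule. Any ILC1 among the members were not separated.

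NK cells made up 3.23% (2.76 to 3.75) of the cells in micro Ctrl, 165 of 5106, and 0.506% (0.331 to 0.740) in micro Tim3-KD, 26 of 5142. In macrometastasis they made up 3.46% (2.97 to 4.01) in Ctrl, 170 of 4913, and 1.34% (1.06 to 1.69) in Tim3-KD, 74 of 5502. In adjacent liver they were 1.28% (0.810 to 1.91) in Ctrl, 23 of 1803, and 2.03% (1.02 to 3.6) in Tim3-KD, 11 of 542. The share of NK cells was lower with Tim3-KD tumour cells in both pairs with metastasis, and the intervals of the adjacent pair overlapped.

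**Figure D1:**
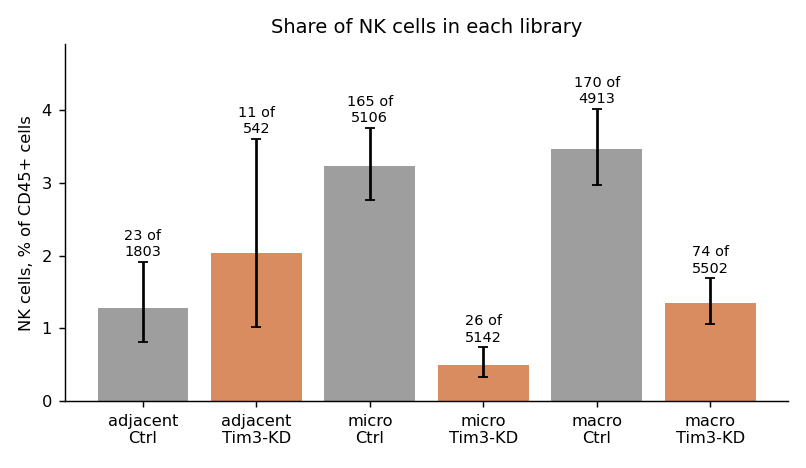
NK cells as a percentage of all CD45+ cells in each library (vertical axis, starting at 0), with Ctrl in grey, Tim3-KD in orange and exact 95% binomial intervals as error bars. Micro Tim3-KD was lowest, at 0.506%, and micro Ctrl and macro Ctrl were highest, at 3.23% and 3.46%.

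As a ratio of shares, Tim3-KD over Ctrl was 0.156 (0.0993 to 0.238) in micrometastasis, 0.389 (0.292 to 0.514) in macrometastasis and 1.59 (0.700 to 3.40) in adjacent liver. Set over the NK cells, the 254 cells chosen on ILC1 genes and all cells with a Cd3 mean of at least 1, the ratios were 0.235 (0.149 to 0.356), 0.438 (0.329 to 0.579) and 0.660 (0.291 to 1.41). Without those 254 cells, which were led by endothelial genes, they were 0.229 (0.145 to 0.347), 0.405 (0.304 to 0.535) and 0.734 (0.323 to 1.57). The ratio in adjacent liver turned with the denominator, and those in micro- and macrometastasis did not. In Ctrl, the share in micrometastasis was 2.53 times (1.63 to 4.11) that in adjacent liver on the same day, or 1.68 (1.05 to 2.80) times without cells under 3000 UMIs. The share in macrometastasis was 1.07 times (0.859 to 1.33) that in micrometastasis and turned to 0.984 (0.777 to 1.25) at a marker mean above 2, and day and lesion stage cannot be told apart there. A share is lower when other cells are more numerous as well as when NK cells are fewer, and the sort gives no absolute number.

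In micrometastasis, the 26 NK cells of Tim3-KD held less of the cytotoxic genes than the 165 of Ctrl, with the lowest ratio at perforin. Of 10 cytotoxic effector genes, 6 were at least 2-fold lower and none was higher, and all 10 lay below the median ratio of all genes tested. Over all 1074 genes tested, 30.2% were at least 2-fold lower and 7.54% at least 2-fold higher, with a median log2 ratio of -0.47, so the typical gene of the matrix was itself lower in Tim3-KD relative to total UMIs. In all, 37.7% of the genes tested lay at least 2-fold apart, and 5.59% were higher and 15.7% lower with an interval that left out 1. On a scale that sets the trimmed mean of all ratios to 1 (a shift of -0.33 on the log2 scale), 216 genes were lower and 130 higher in place of 324 and 81, and 3 of the 10 effector genes were 2-fold lower (Prf1, Serpinb9 and Cst7).

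Gzma stood at 10199 CPM in adjacent Ctrl, 5690.3 in adjacent Tim3-KD, 12748 in micro Ctrl, 7889 in micro Tim3-KD, 10081 in macro Ctrl and 8226 in macro Tim3-KD. Its ratio in micrometastasis was 0.619 (0.584 to 0.655), and 0.777 on the trimmed-mean scale. Gzmb, the granzyme that starts caspase-driven death, stood at 1291, 1168, 1797, 854, 1388 and 899.5 CPM in the same order, and its ratio was 0.475 (0.398 to 0.564), or 0.597 on the trimmed-mean scale. The Tim3-KD library was the lower of each pair for both granzymes, although the interval of the Gzmb ratio in adjacent liver held 1 and that ratio was 1.02 on the trimmed-mean scale. Prf1 stood at 865, 718, 1182, 281, 934 and 882 CPM, and micro Tim3-KD lay far below the other libraries. Its ratio in micrometastasis was 0.238 (0.174 to 0.317), and 0.298 on the trimmed-mean scale.

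**Figure D2:**
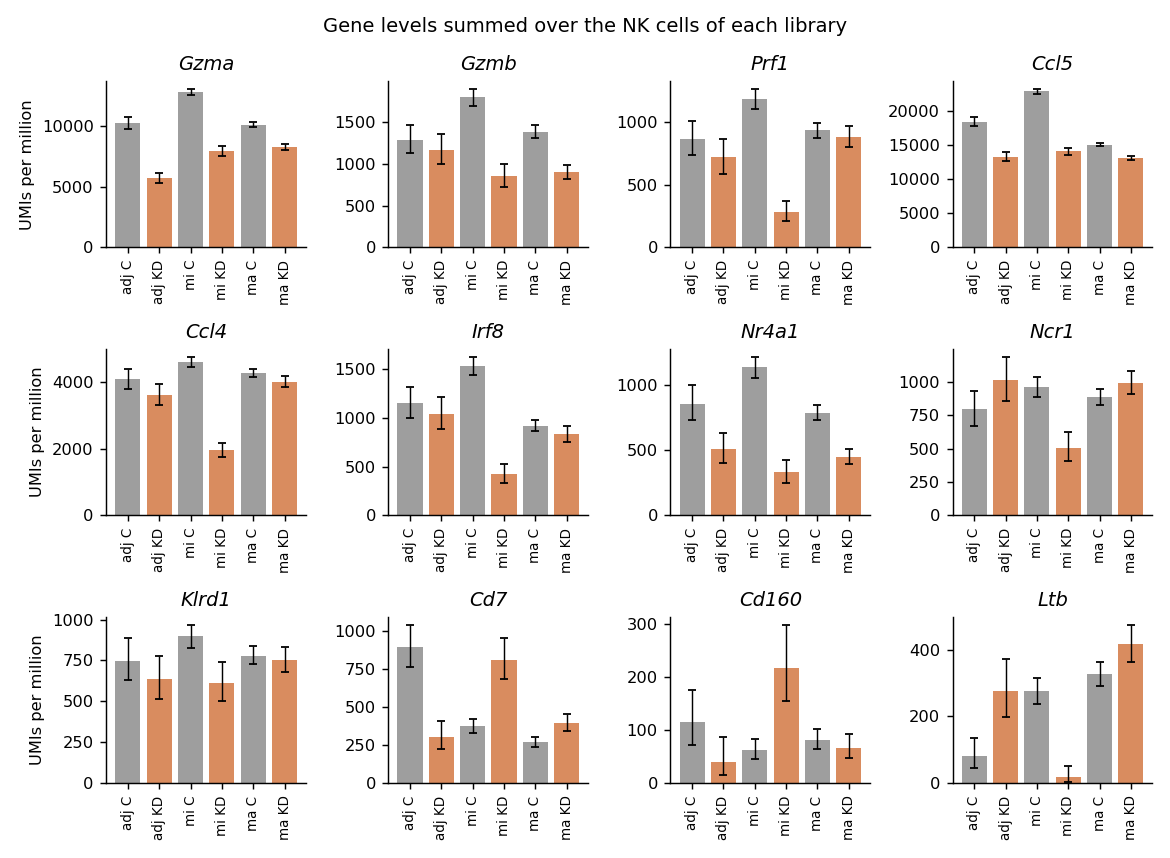
Levels of 12 genes summed over the NK cells of each library, in CPM (vertical axes, starting at 0), with exact 95% Poisson intervals as error bars, Ctrl (C) in grey and Tim3-KD (KD) in orange, for adjacent liver (adj), micrometastasis (mi) and macrometastasis (ma). Prf1, Irf8, Ccl4 and Ltb were lowest in micro Tim3-KD, at 281, 419, 1949 and 17.2, while Cd160 was highest there, at 218.

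Nkg7, a protein of the cytotoxic granule, had a ratio of 0.504 (0.445 to 0.568). Serpinb9, whose product inhibits granzyme B, had a ratio of 0.393 (0.263 to 0.569) and its relative Serpinb9b one of 0.407 (0.231 to 0.671). Fasl, a death receptor ligand, stood at 0.488 (0.295 to 0.770) and Cst7, which encodes cystatin F, at 0.344 (0.161 to 0.655). The serpin gene Serpinb6b was at 0.680 (0.532 to 0.859) and Ctsw, a cathepsin of NK and CD8 T cells, at 0.692 (0.497 to 0.946).

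In single cells, the median Prf1 level was 12.8 (0 to 58.4) UMIs per 10000 in micro Ctrl and 1.31 (0 to 18.8) in micro Tim3-KD, and Prf1 was at 0 in 19 of 165 and 10 of 26 cells. After each cell was thinned to 1500 UMIs, 74.5% (67.2 to 81.0) of Ctrl and 30.8% (14.3 to 51.8) of Tim3-KD cells had a Prf1 UMI, against 88.5% and 61.5% unthinned. In B cells, which should lack perforin, the thinned shares were 0.565% and 0%. For Gzma the thinned shares of NK cells were 90.3% (84.7 to 94.4) and 88.5% (69.8 to 97.6), which overlapped, while the median level per cell was 158 (0 to 413) against 82.0 (0 to 309.6) per 10000. For Gzmb they were 75.8% (68.5 to 82.1) and 65.4% (44.3 to 82.8), with median levels of 17.5 (0 to 94.0) and 7.60 (0 to 73.7). At a fixed depth the share of cells with a UMI follows the level of the gene. Gzma was high enough in both libraries to be found in most cells. These shares therefore cannot tell fewer cells that carry perforin from less perforin in each cell.

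**Figure D3:**
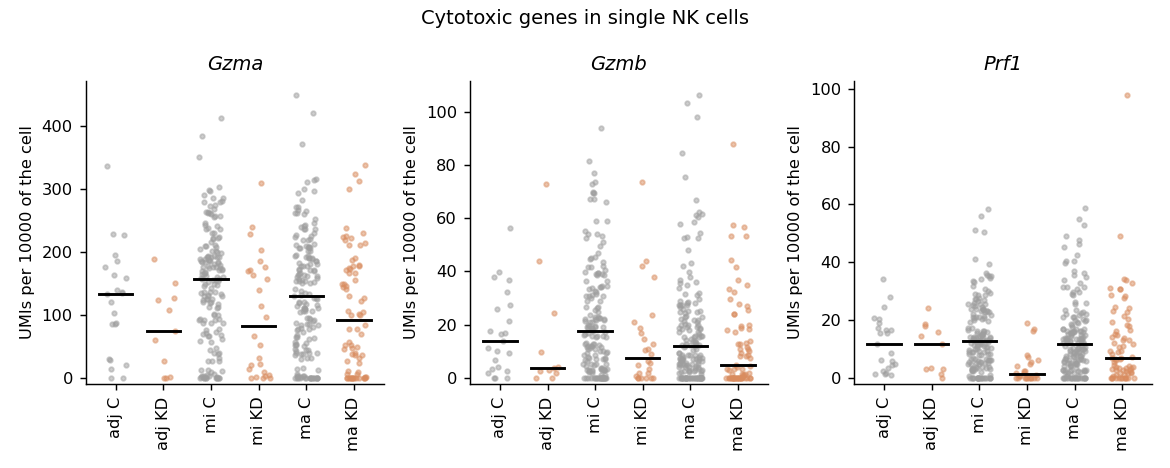
Gzma, Gzmb and Prf1 in single NK cells of each library, in UMIs per 10000 of the cell (vertical axes), with 1 point per cell, a line at the median, Ctrl (C) in grey and Tim3-KD (KD) in orange. In micro Tim3-KD 10 of 26 cells were at 0 for Prf1 and the median was 1.31, against 12.8 in micro Ctrl.

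The T cells of the same pair of libraries had Tim3-KD over Ctrl ratios of 5.58 for Gzma, 1.29 for Gzmb, 2.41 for Prf1 and 1.33 for Nkg7, so the lower levels were not seen in T cells. The NK cells of Tim3-KD had a median of 4332 UMIs against 3261 in Ctrl. Among members of 3000 to 8000 UMIs, 16 against 84, the ratio was 0.286 (0.188 to 0.419) for Prf1, 0.530 (0.417 to 0.665) for Gzmb and 0.865 (0.804 to 0.929) for Gzma, so the ratios of perforin and Gzmb stayed low in cells of like depth and that of Gzma moved towards 1.

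Among 11 NK identity genes in micrometastasis 1 was called lower, Klre1 at 0.498 (0.352 to 0.688), and on the trimmed-mean scale, where it was at 0.625, none was. Klrd1 was at 897 CPM in micro Ctrl and 613 in micro Tim3-KD, a ratio of 0.684 (0.552 to 0.841). Il2rb had a ratio of 0.672 (0.550 to 0.816) and Klrk1, which encodes the activating receptor NKG2D, 0.861 (0.641 to 1.14). Of 3 Ly49 genes none was called, with Klra3 at 0.821 (0.635 to 1.05) and Klra7 at 1.42 (0.973 to 2.03). Ncr1, at 0.526 (0.416 to 0.657), Klri2, at 1.35 (0.952 to 1.88), Eomes, at 0.540 (0.347 to 0.809), and Klra7 were part of the rule, which bounds their levels.

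Among 15 other NK receptor genes, 2 were at least 2-fold higher and 3 lower, beside 7.54% and 30.2% of all genes. On the trimmed-mean scale 2 were higher and 1 was lower. Cd7, an immunoglobulin-family receptor of T and NK cells, stood at 371 CPM in micro Ctrl and 808 in micro Tim3-KD, a ratio of 2.18 (1.76 to 2.69). Cd160, a receptor for the ligand HVEM, stood at 61.3 and 218, a ratio of 3.55 (2.23 to 5.63), with a UMI in 22 of 165 and 12 of 26 cells. In the range of 3000 to 8000 UMIs Cd160 was at 2.23 (0.890 to 5.18), whose interval held 1, and Cd7 at 1.88 (1.34 to 2.60). Besides Klre1, the lower genes were Cd226 (DNAM-1), an activating receptor, at 0.342 (0.0895 to 0.936) on 4 UMIs in Tim3-KD, and Klrb1f at 0.440 (0.240 to 0.752). Klre1 and Klrb1f were no longer past 2-fold on the trimmed-mean scale. Cd7 in the T cells of this pair had a ratio of 0.755 and Cd160 one of 1.58.

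Of 15 transcription factor genes, 5 were at least 2-fold lower and none was higher, a share of lower genes near the 30.2% of all genes, and on the trimmed-mean scale 5 were lower and 1 was higher. Irf8 stood at 1149, 1040.1, 1535, 419, 922 and 831 CPM by library, lowest in micro Tim3-KD, and its ratio in micrometastasis was 0.273 (0.212 to 0.346). Zeb2, which acts late in NK maturation, had a ratio of 0.287 (0.112 to 0.614). Rora was at 0.191 (0.0384 to 0.586), Ikzf3 at 0.241 (0.0481 to 0.747) and Prdm1, which encodes Blimp-1, at 0.355 (0.0697 to 1.13), with 3, 3 and 3 UMIs in Tim3-KD. Id2, needed by innate lymphoid cells, stood at 0.747 and Ets1 at 0.572. In T cells of the same pair Irf8 had a ratio of 2.40.

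Of 8 maturation and circulation genes, 5 were at least 2-fold lower, namely Cma1, Spn, Zeb2, Prdm1 and Ly6c2, and none was higher, beside 30.2% and 7.54% of all genes, or 5 and 1 on the trimmed-mean scale. Cma1, which encodes a chymase, stood at 195 CPM in micro Ctrl and 34.4 in micro Tim3-KD, a ratio of 0.176 (0.0635 to 0.393). Spn, which encodes CD43, stood at 178 and 51.6, a ratio of 0.289 (0.129 to 0.567). Cma1 was at 0.327 (0.103 to 0.800) among members of 3000 to 8000 UMIs. Cd27, which NK cells lose as they mature, was at 1.75 (0.930 to 3.17), and the 10 Ly6c2 UMIs of Tim3-KD all came from 1 cell. Of 10 early NK genes, 1 was higher (Cd7) and 1 lower (Ltb), or 2 and 1 on the trimmed-mean scale, and of 12 genes of type 1 innate lymphoid cells or tissue residency 2 were higher (Cd160 and Inpp4b) and 1 lower (Ltb).

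A Cd27 UMI was found in 11 of 26 Tim3-KD and 26 of 165 Ctrl cells of micrometastasis, and after thinning in 15.4% (4.36 to 34.9) and 7.88% (4.26 to 13.1), with overlapping intervals, beside 1.6% and 1.41% of B cells. Among cells without a Cd27 UMI, 15 against 139, the ratio was 0.294 (0.195 to 0.425) for Prf1, 0.408 (0.30 to 0.542) for Irf8, 0.791 (0.650 to 0.955) for Gzmb and 0.929 (0.868 to 0.994) for Gzma. Among cells with one, 11 against 26, it was 0.318 (0.186 to 0.518) for Prf1, 0.211 (0.130 to 0.328) for Irf8, 0.342 (0.218 to 0.518) for Gzmb and 0.488 (0.436 to 0.545) for Gzma. Prf1 and Irf8 were lower on both sides of the split.

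Of 10 cytokine and chemokine genes in micrometastasis 3 were called lower (Ccl3, Ccl4 and Ltb), a share near the 30.2% of all genes, and 2 higher (Cxcl10 and Osm). On the trimmed-mean scale 1 was lower and 2 were higher. Ccl5 stood at 18467, 13319.8, 22885, 14081, 15089.6 and 13076 CPM by library, and its ratio in micrometastasis was 0.615 (0.589 to 0.642). The chemokine genes Ccl4 and Ccl3 had ratios of 0.423 (0.377 to 0.473) and 0.405 (0.336 to 0.486), and Xcl1 one of 0.532 (0.426 to 0.659). Ifng was at 315 in micro Ctrl and 241 in micro Tim3-KD, a ratio of 0.764 (0.536 to 1.07), whose interval held 1. Ccl4 was at 0.406 among members of 3000 to 8000 UMIs, while Ccl3, at 0.636 (0.501 to 0.799) there, was no longer past 2-fold. Of the Cxcl10 UMIs of Tim3-KD 94.8% came from 1 cell, and without the cell that held most of them its ratio was 0.804.

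Ltb, which encodes lymphotoxin beta, stood at 82.1, 275, 275, 17.2, 326 and 417 CPM by library. In micrometastasis it had 3 UMIs in Tim3-KD and 193 in Ctrl, a ratio of 0.0625 (0.0128 to 0.185), or 0.101 among members of 3000 to 8000 UMIs. The T cells of this pair had less of it too, at a ratio of 0.144, so the difference ran through both cell types, and the part of the library in it was not tested.

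Both chains of the receptor for IL-18, a cytokine that primes NK cells for interferon gamma, were lower in micro Tim3-KD. Il18r1 had 153 CPM in the Ctrl library and 28.7 in that of Tim3-KD, which gave a ratio of 0.188 (0.0598 to 0.452), and Il18rap at 229.6 and 68.8, a ratio of 0.30 (0.152 to 0.538). With Tgfbr2, at 0.280 (0.0557 to 0.876) on 3 UMIs, they were the 3 called of 9 cytokine and chemokine receptor genes, a share near the 30.2% of all genes. Il18r1 was at 0.0857 among members of 3000 to 8000 UMIs. Of 10 adaptors and kinases 2 were lower, Fyn at 0.420 (0.234 to 0.705) and Prkcq at 0.379 (0.118 to 0.942), and of 5 metabolism and transporter genes 1 was lower (Slc2a3) and none higher. On the trimmed-mean scale 1 adaptor or kinase gene was lower, and 3 metabolism and transporter genes were higher and 0 lower.

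Nr4a1, an immediate early nuclear receptor induced by receptor signalling, stood at 854, 503, 1131, 327, 786 and 448 CPM by library, and Tim3-KD was the lower of each pair. Its ratio in micrometastasis was 0.289 (0.217 to 0.378), against 0.776 in T cells. Nr4a3 had a ratio of 0.475 (0.245 to 0.847) and Socs3, a brake on cytokine signals, 0.220 (0.0585 to 0.589), and these 3 were the called genes of 9 checkpoint and activation genes. Of 21 immediate early and stress genes, 5 were lower (Nr4a1, Gadd45b, Zfp36, Nfkbiz and Jun) and 2 higher (Hspa1a and Hspa1b), while Fos was at 0.910 (0.655 to 1.24). Over all genes tested 30.2% were lower and 7.54% higher, and the counts of both lists lay near these shares. On the trimmed-mean scale 4 immediate early and stress genes were higher and 4 lower, and 2 checkpoint and activation genes were lower. Hspa1a, a heat shock protein, had 22 UMIs in 3 Tim3-KD cells and 3 in 3 Ctrl cells, a ratio of 29.5 (8.86 to 154).

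Of 10 cell division genes, 7 were at least 2-fold higher in micro Tim3-KD (8 on the trimmed-mean scale) and none was lower, beside 7.54% and 30.2% of all genes, among them Tubb5 at 2.11 (1.67 to 2.66), Stmn1 at 2.47 (1.87 to 3.25) and Pclaf at 3.33 (2.27 to 4.87). UMIs of at least 3 of 12 division genes were found in 4 of 26 Tim3-KD cells (15.4%, 4.36 to 34.9) and 15 of 165 Ctrl cells (9.09%, 5.18 to 14.6), which overlapped, and in 13.8% and 7.90% of the T cells. In members of 3000 to 8000 UMIs the direction turned for Stmn1, at 0.277, and for Mki67 and Rrm2, which had no UMI in Tim3-KD. Of 8 interferon-stimulated genes 2 were higher (Ifi27l2a and Isg15) and 1 lower (Ly6c2), with 75% of the Isg15 UMIs of Tim3-KD in 1 cell.

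Among all genes whose interval left out 1, the lowest ratios in micro Tim3-KD were those of Dhrs3, Zbtb10, Tigd2, Kidins220 and Phf1, each without a UMI there. Against a floor of 3 UMIs over the NK cells of the library they were at least 3.98-, 2.82-, 2.74-, 2.57- and 2.57-fold lower. The highest ratios were 60.3 (15.3 to 521) for Fn1, 46.2 (11.4 to 405) for F13a1, that of Hspa1a, 14.9 (6.31 to 40.7) for Ms4a6c and 14.4 (6.04 to 39.3) for Rrm2. Fn1, F13a1 and Ms4a6c are expressed by monocytes and macrophages, and 1 cell held 96.7%, 100% and 65.4% of their UMIs in Tim3-KD.

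Monocyte and macrophage markers summed to 757 CPM in the NK cells of micro Tim3-KD, with 59.1% in 1 cell, and to 458 in micro Ctrl, and 2 of 4 tested were higher and 1 lower. B cell markers summed to 545, with 85.3% in 1 cell, and 247, and 2 of 4 were higher and 1 lower. T cell markers summed to 1158 and 1466, and 3 of 7 were higher and 1 lower. Neutrophil markers summed to 138 and 128, with the 1 gene tested lower, and hepatocyte and endothelial markers to 74.5 and 123, with 1 of 2 lower. No T cell or neutrophil marker was lower on the trimmed-mean scale. No dendritic or basophil marker reached 20 UMIs, and the 1 gene of type 3 and type 2 innate lymphoid cells tested was not called. None of 8 tumour epithelial markers was in the matrices. Without the 2 Tim3-KD and 3 Ctrl members that held 5 or more UMIs of other lineages, the ratio was 0.230 for Prf1, 0.499 for Gzmb and 0.266 for Irf8.

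**Figure D4:**
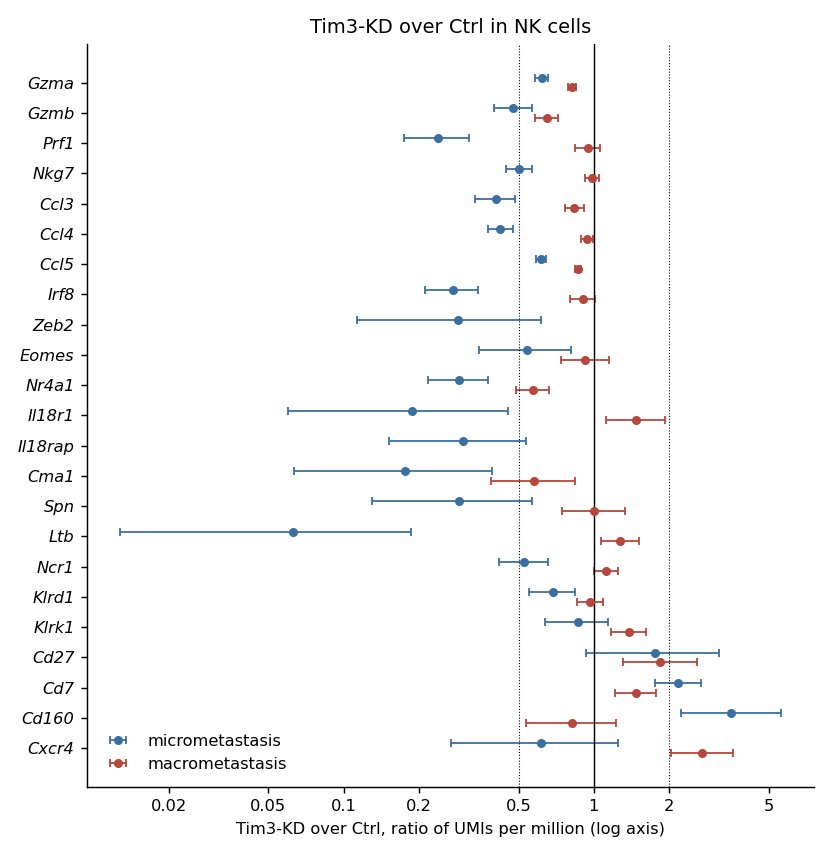
Ratios of Tim3-KD over Ctrl in NK cells for 23 genes (horizontal log axis) in micrometastasis (blue) and macrometastasis (red), with exact 95% counting intervals as bars and dotted lines at 0.5 and 2, and Zeb2 and Il18rap are plotted for micrometastasis alone. Prf1 lay at 0.238 in micrometastasis and 0.945 in macrometastasis, and Irf8 at 0.273 and 0.902.

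In macrometastasis fewer genes stood apart. The NK cells of Tim3-KD held 524710 UMIs there and 174421 in micrometastasis. Counting error was thus smaller, and the shares of genes past 2-fold in these pairs are not directly comparable. Over 1208 genes tested, 7.86% were at least 2-fold higher and 9.35% at least 2-fold lower in Tim3-KD, with a median log2 ratio of 0.00. In all, 17.2% of the genes tested lay at least 2-fold apart, and 6.29% were higher and 7.04% lower with an interval that left out 1. None of 12 NK identity genes, 10 cytotoxic effectors, 15 transcription factors, 3 Ly49 genes, 10 adaptors and kinases, 12 division genes or 3 metabolism genes was called in either direction. Ncr1, Klra7, Klri2 and Eomes in these lists were part of the rule, which bounds their levels. Prf1 had a ratio of 0.945 (0.843 to 1.06), Nkg7 0.981 (0.919 to 1.05), Irf8 0.902 (0.803 to 1.01) and Klrd1 0.966 (0.853 to 1.09). Prf1 turned to 1.24 (1.07 to 1.43) among members of 3000 to 8000 UMIs, and Irf8 and Nkg7 to 1.06 and 1.06. These intervals cover counting error, and the spread between mice is unknown. The difference between the ratios of the day 3 and day 12 pairs was not tested.

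Gzmb had a ratio of 0.648 (0.582 to 0.720) and Gzma one of 0.816 (0.787 to 0.846). Among cells with a Cd27 UMI Gzma was at 1.12 (1.05 to 1.18) and among those without at 0.828 (0.789 to 0.868), so its direction turned in the former. After thinning, 67.6% (60.1 to 74.6) of Ctrl and 48.6% (36.9 to 60.6) of Tim3-KD cells had a Gzmb UMI, and the median per cell was 12.1 (0 to 106) against 4.68 (0 to 87.7) per 10000. Among members of 3000 to 8000 UMIs, 94 in Ctrl and 46 in Tim3-KD, the Gzmb ratio was 0.830 (0.720 to 0.956), nearer to 1. Gzmb in T cells of this pair had a ratio of 1.11. Nr4a1 had a ratio of 0.570 (0.491 to 0.660) in NK cells, 0.610 (0.496 to 0.745) in those of 3000 to 8000 UMIs and 0.687 in T cells.

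Of 13 early NK genes in macrometastasis, 2 were at least 2-fold higher in Tim3-KD (Il7r and Kit) and none lower, beside 7.86% and 9.35% of all genes. Their median log2 ratio was 0.56, against 0.00 over all genes. Il7r, the IL-7 receptor, had 16.1 CPM in the Ctrl library and 55.3 in that of Tim3-KD, which gave a ratio of 3.43 (1.80 to 6.76), with a UMI in 7 of 170 and 11 of 74 cells. Kit, the stem cell factor receptor, was at 7.05 and 30.5, a ratio of 4.32 (1.68 to 12.4). Cd27 was at 74.5 and 137, a ratio of 1.84 (1.31 to 2.58), with a UMI in 42 of 170 and 30 of 74 cells. After thinning these shares were 9.41% (5.48 to 14.8) and 13.5% (6.68 to 23.5), which overlapped. The NK cells of Tim3-KD were deeper, at a median of 4800 UMIs against 3704.

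Of 10 cytokine and chemokine receptors 4 were called higher (Cxcr4, Il7r, Ccr7 and Il2ra) and none lower, beside 7.86% and 9.35% of all genes. The interval of Ccr7, at 2.24 (0.924 to 5.51), held 1. Cxcr4, the receptor for CXCL12, had 84.6 CPM in the Ctrl library and 229 in that of Tim3-KD, which gave a ratio of 2.7 (2.03 to 3.62), with a UMI in 43 of 170 and 44 of 74 cells. The ratio was 2.43 (1.64 to 3.63) among cells with a Cd27 UMI and 2.72 (1.73 to 4.27) among those without, and 1.63 in T cells. Il2ra was at 2.84 (1.07 to 8.0), but at 0.604 when the members were chosen on UMIs in place of scores. Il18r1 was at 1.47 (1.12 to 1.93) and Ccr2 at 1.46 (1.19 to 1.79).

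Slamf6, an adhesion receptor of the SLAM family, at 3.94 (1.91 to 8.61), was the 1 gene called of 16 other NK receptor genes, and Il7r and Inpp4b, at 2.75 (1.20 to 6.56), were the 2 called of 13 type 1 innate lymphoid and residency genes. Klrk1 was at 1.38 (1.17 to 1.62) and Klrc2 at 1.47 (1.08 to 2.00). Of 13 checkpoint and activation genes Tnfrsf9 (4-1BB) was higher, at 2.11 (1.47 to 3.03), and Socs1 lower, at 0.445 (0.109 to 1.36). The counts of these lists lay near the 7.86% higher and 9.35% lower of all genes.

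Ly6c2, a surface antigen of mature NK cells that monocytes also carry, stood at 131, 738, 177, 57.3, 113 and 28.6 CPM by library, and 72.7% of the UMIs in adjacent Tim3-KD, the highest library, were in 1 cell. In macrometastasis 39 of 170 Ctrl cells and 5 of 74 Tim3-KD cells held a UMI of it (22.9% and 6.76%, against 4.84% and 7.28% of B cells), and the ratio was 0.253 (0.137 to 0.436), or 0.407 (0.216 to 0.718) among members of 3000 to 8000 UMIs. It was 0.601 in T cells. Cma1 had a ratio of 0.579 (0.389 to 0.842), or 0.966 among members of 3000 to 8000 UMIs, and Spn 0.999 (0.745 to 1.33), and of 8 maturation and circulation genes 1 was called higher (Kit) and 1 lower (Ly6c2). Of 11 interferon-stimulated genes, Bst2, at 0.420 (0.258 to 0.659), and Ly6c2 were lower and none was higher. All genes tested were 7.86% higher and 9.35% lower, and these few calls lay near those shares.

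In macrometastasis Ccl5 was at 0.867 (0.842 to 0.892), Ccl4 at 0.940 (0.892 to 0.991), Xcl1 at 0.922 (0.821 to 1.03), Ifng at 1.10 (0.912 to 1.32) and Ccl9 at 0.532 (0.223 to 1.14). Ccl4 turned to 1.26 (1.18 to 1.35) among members of 3000 to 8000 UMIs and Ccl3 from 0.835 to 1.12 (1.00 to 1.24), and Ccl5 was at 1.01. Of 12 cytokine and chemokine genes Tnf was called higher, at 2.42 (1.39 to 4.26), and Cxcl10 lower, at 0.133 (0.0595 to 0.261), with 72.7% of the Ctrl UMIs of Cxcl10 in 1 cell. Of 16 immediate early and stress genes Hspa1a was lower, at 0.424 (0.225 to 0.749). Both counts lay near the shares of all genes, 7.86% higher and 9.35% lower.

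The genes of highest ratio in macro Tim3-KD were Igkc, at 9.76 (7.04 to 13.8), Gng11, at 9.46, Iglc2, at 8.99, Stfa2l1, at 6.49, and Ebf1, at 5.85. In Tim3-KD 1 cell held 75% of the Stfa2l1 and 52.6% of the Iglc2 UMIs. Igkc, Iglc2 and Ebf1 belong to B cells. Of 8 B cell markers 6 were higher and none lower, while 7.86% of all genes were higher and 9.35% lower. The B cell markers summed to 1281 CPM against 404, beside 2027 and 1309 in the T cells of the same libraries. The lowest were Saa3 and Erdr1, without a UMI and at least 20.4- and 5.64-fold lower, and Hmga1, at 0.0456, Spata7, at 0.0676, and Mt1, at 0.0772. Of the 116 Saa3 UMIs in Ctrl 94.8% were in 1 cell, whereas the 32 of Erdr1 lay in 26 cells. For Spata7, Hmga1 and Mt1, 1 Ctrl cell held 58.9%, 47.0% and 45.9% of the Ctrl UMIs. Of 10 monocyte and macrophage markers 8 were lower, at sums of 454 and 894, with 53.7% of the Ctrl UMIs in 1 cell. Of 7 T cell markers 2 were higher and none lower, at sums of 1326 and 1243. None of 2 neutrophil, 1 hepatocyte or endothelial and 1 type 3 or type 2 innate lymphoid gene tested was called. The part of these other cells in the macrometastasis values was not tested.

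In adjacent liver 11 Tim3-KD cells stood against 23 Ctrl cells, at medians of 12060 and 4809 UMIs. Over 433 genes tested, 18.7% were at least 2-fold higher and 18.9% lower, with a median log2 ratio of -0.19 (-0.17 for the trimmed mean). In all, 37.6% of the genes tested lay at least 2-fold apart, and 17.3% were higher and 15.2% lower with an interval that left out 1. Gzmb had a ratio of 0.904 (0.739 to 1.10), Nkg7 0.906 (0.780 to 1.05), Prf1 0.831 (0.644 to 1.07) and Klrd1 0.850 (0.648 to 1.11), all with intervals that held 1. Gzma was lower in the sum, at 0.558 (0.514 to 0.605), and the ratio of the means over cells, which gives each cell the same weight, was 0.645. Of 9 cytotoxic effectors 1 was called lower, Serpinb6b at 0.434 (0.286 to 0.643), and of 11 NK identity genes 1, Klrk1 at 0.468 (0.311 to 0.690).

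Ifng had 5 UMIs in 4 of 11 Tim3-KD cells and 64 in 12 of 23 Ctrl cells, a ratio of 0.0958 (0.0301 to 0.235), against 0.418 in T cells of the pair. Cd7 had 892 CPM in the Ctrl library and 302 in that of Tim3-KD, which gave a ratio of 0.339 (0.238 to 0.474), against 0.360 in T cells. Cd160 was at 0.350 (0.116 to 0.898), Rgs1 at 0.273 (0.190 to 0.385) and Ltb at 3.35 (1.82 to 6.52), beside 3.02 for Ltb in T cells. For Cd7 and Ltb the T cells differed in the same direction, and the part of the library was not tested. Among members of 3000 to 8000 UMIs Cd7 was at 1.39 and Ltb had no UMI in Tim3-KD, but that range held 1 Tim3-KD cell and 15 Ctrl cells. Of 15 immediate early and stress genes 4 were higher (Junb at 2.14, Jun at 3.00, Fos at 2.20 and Ier2 at 2.27) and 4 lower. All 10 division genes tested were lower, and 84.7% of the Top2a and 76.9% of the Mki67 UMIs of Ctrl were in 1 cell. Without members over 20000 UMIs Stmn1 was at 1.39 and Top2a at 1.83.

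The counts of the other lists in adjacent liver stand beside 18.7% of all genes called higher and 18.9% lower. Called higher and lower were 1 and 3 of 13 other NK receptors, 0 and 0 of 2 Ly49 genes, 0 and 1 of 9 adaptors and kinases, 0 and 1 of 9 transcription factors, 1 and 2 of 6 maturation genes, 2 and 3 of 8 early NK genes and 2 and 2 of 8 type 1 innate lymphoid or residency genes. They were 1 and 2 of 7 cytokines and chemokines, 0 and 0 of 5 of their receptors, 0 and 2 of 9 checkpoint genes, 3 and 1 of 8 interferon-stimulated genes and 0 and 1 of 2 metabolism genes. Among markers of other cells they were 1 and 1 of 4 T cell, 2 and 0 of 3 B cell, 1 and 1 of 3 monocyte and macrophage and 1 and 0 of 1 dendritic markers. On the trimmed-mean scale no NK identity gene, checkpoint gene or T cell marker was called lower, and 4 interferon-stimulated genes were higher and none lower.

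In adjacent liver the genes of highest ratio were Siglech, Klk1, Iglc3, Ctsl and Rnase6, each carried by 1 Tim3-KD cell. The first 3 had no UMI in Ctrl and were at least 18.4-, 15.9- and 15.5-fold higher, and the ratios of Ctsl and Rnase6 were 25.8 (6.70 to 219.6) and 19.0 (4.84 to 164). The lowest were Mki67, Spp1, Smc2, Cenpf and Ube2c, without a UMI in Tim3-KD and at least 14.1-, 10.3-, 9.51-, 9.24- and 9.24-fold lower. Of their Ctrl UMIs 76.9%, 34.2%, 62.9%, 100% and 97.1% were in 1 cell, in that order.

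Between sites in Ctrl on day 3, 1 of 9 cytotoxic effectors was called higher in NK cells from micrometastasis than in those from adjacent liver and none lower. The called gene was Serpinb9, at 2.12 (1.52 to 3.04), and the others had ratios above 1 but under 2, with Gzma at 1.25 (1.19 to 1.31), Gzmb at 1.39 (1.21 to 1.61), Nkg7 at 1.48 (1.34 to 1.65) and Prf1 at 1.37 (1.15 to 1.63). Over 920 genes 13.8% were at least 2-fold higher and 8.8% lower, with a median log2 ratio of -0.00 (-0.10 for the trimmed mean). In all, 22.6% of the genes tested lay at least 2-fold apart, and 4.57% were higher and 6.85% lower with an interval that left out 1. None of 11 NK identity genes was called. Cd7, at 0.416 (0.341 to 0.509), Cd27, at 0.376 (0.225 to 0.640), and Klrc2, at 0.473 (0.322 to 0.703) (0.507 on the trimmed-mean scale), were lower in micrometastasis and Ltb was higher, at 3.35 (1.98 to 6.11), although Cd7 was at 1.40 among members of 3000 to 8000 UMIs. The share of cells with a Cd27 UMI was 15.8% in micrometastasis and 39.1% in adjacent liver, but 7.88% (4.26 to 13.1) and 4.35% (0.110 to 21.9) after thinning, in the opposite order and with overlapping intervals. Of 13 division genes 9 were lower and none higher. Mki67 was at 0.231 (0.152 to 0.350), and at 1.57 without members over 20000 UMIs. The lowest ratios were those of Ms4a6c (0.0424), Ifi30, Ms4a4c, Ifi27l2a and Ccl9 (0.113), with 76.7% to 100% of the adjacent UMIs in 1 cell. Tspan32, Tnf, Nfe2l1, Saa3 and Rad50 had no UMI in adjacent liver and were at least 2.52-, 2.35-, 2.35-, 2.26- and 2.09-fold higher. Of the Saa3 UMIs in micrometastasis 80.8% were in 1 cell.

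Between micrometastasis on day 3 and macrometastasis on day 12 in Ctrl, none of 10 cytotoxic effectors or 11 NK identity genes was called. Gzma had a ratio of 0.791 (0.768 to 0.814), Gzmb 0.772 (0.715 to 0.834), Prf1 0.790 (0.718 to 0.868) and Ccl5 0.659 (0.645 to 0.674). On the trimmed-mean scale Gzma, Gzmb and Prf1 were at 0.864, 0.843 and 0.862. Over 977 genes 9.11% were at least 2-fold higher and 4.3% lower, with a median log2 ratio of -0.13, and on the trimmed-mean scale (also -0.13) 104 were higher and 24 lower in place of 89 and 42. In all, 13.4% of the genes tested lay at least 2-fold apart, and 7.88% were higher and 2.87% lower with an interval that left out 1. Of 12 division genes 11 were at least 2-fold higher in macrometastasis, among them Stmn1 at 2.65 (2.20 to 3.22), Pclaf at 2.59 (1.96 to 3.48) and Top2a at 2.40 (1.76 to 3.32). UMIs of at least 3 of 12 division genes were found in 26 of 170 cells (15.3%, 10.2 to 21.6) against 15 of 165 (9.09%, 5.18 to 14.6). Irf8 was at 0.601 (0.549 to 0.657) and Klf2, a factor of lymphocyte circulation, at 1.47 (1.17 to 1.84). The lowest ratios were those of Pmepa1 (0.193), Sigirr, Ifitm6, Arap3 and Rbm48 (0.332). The highest were those of Iglc1, Clec4f, C1qb, Cd5l and C1qc, with 84.3% to 100% of the macrometastasis UMIs in 1 cell.

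Within libraries, the NK cells were split by Cd27 in the 3 libraries with over 70 members (micro Ctrl, macro Ctrl and macro Tim3-KD). Cells with a Cd27 UMI had less Gzmb than those without, with ratios of 0.393, 0.330 and 0.317 in that order. Prf1 had ratios of 0.467, 0.310 and 0.398, Gzma of 0.618, 0.463 and 0.623, Ccl5 of 0.718, 0.465 and 0.399 and Cma1 of 0.251, 0.0645 and 0.213. Irf8 stood at 0.651, 0.538 and 0.674. In the other direction, Cd7 had ratios of 1.99, 1.49 and 1.34, Cd160 of 3.41, 2.29 and 1.27 and Xcl1 of 1.61, 1.56 and 1.10, while Klrd1 stood at 0.876, 0.793 and 0.867. The cells with Cd27 were deeper, at medians of 3698 against 3177, 5322 against 3384.5 and 7836 against 3905.5 UMIs. Among members of 3000 to 8000 UMIs the ratios were 0.446, 0.523 and 0.492 for Gzma, 0.315, 0.573 and 0.283 for Gzmb and 0.536, 0.509 and 0.471 for Prf1, below 1 in each library. Ccl5 was at 0.812, 0.746 and 0.641 there, Cma1 at 0.380, 0.0637 and 0.375 and Irf8 at 0.782, 0.630 and 0.916. The Irf8 interval of macro Tim3-KD (0.704 to 1.19) held 1. In the same range Xcl1 stood at 2.71, 1.48 and 2.10, while Cd7, at 1.82, 2.18 and 0.959, and Cd160, at 2.97, 1.40 and 0.501, turned below 1 in macro Tim3-KD.

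**Figure D5:**
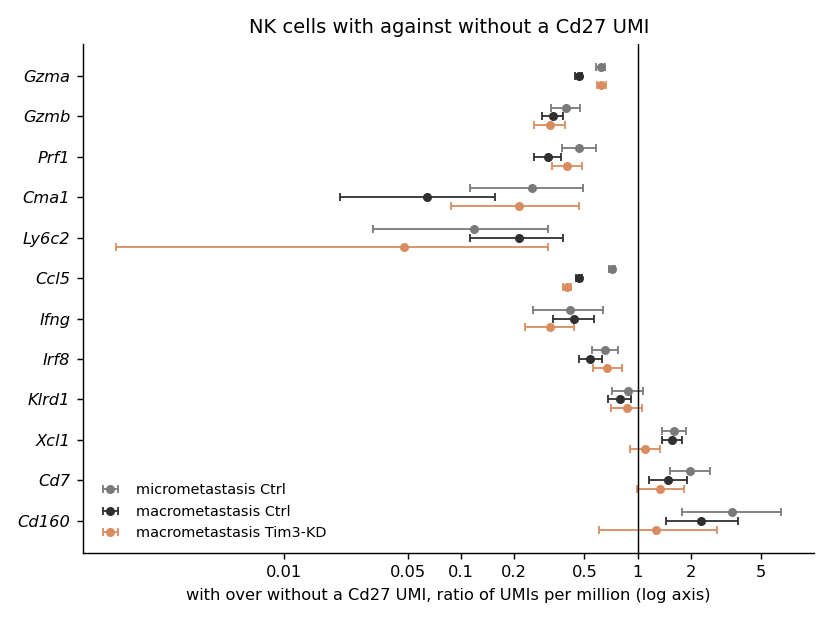
Ratios of NK cells with a Cd27 UMI over those without (horizontal log axis) for 12 genes in micro Ctrl, macro Ctrl and macro Tim3-KD, with exact 95% counting intervals as bars. Gzmb and Prf1 lay below 0.5 in all 3 libraries, and Cd7, Cd160 and Xcl1 lay above 1, although Cd7 and Cd160 in macro Tim3-KD turned below 1 among members of 3000 to 8000 UMIs.

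Ly6c2 split the cells the other way in the Ctrl libraries. A Ly6c2 UMI was found in 39 of 165 NK cells of micro Ctrl and 39 of 170 of macro Ctrl, or 23.6% and 22.9%, against 6.92% and 4.84% of B cells. After thinning to 1500 UMIs these shares were 18.2% and 14.1% of NK cells and 2.68% and 2.65% of B cells. NK cells with a Ly6c2 UMI had more Prf1, with ratios of 1.49 and 2.28, more Gzmb, with 1.39 and 2.02, and more Cma1, with 2.22 and 4.15. Spn was higher in them, at 2.41 and 2.16, and Cd7 lower, at 0.505 and 0.594. In the range of 3000 to 8000 UMIs Prf1 was at 1.68 and 2.09, Gzmb at 1.34 and 2.60, Cma1 at 1.83 and 4.38 and Cd7 at 0.451 and 0.817, where the Cd7 interval of macro Ctrl included 1. In macro Tim3-KD the share of NK cells with a Ly6c2 UMI (6.76%) did not lie above that of B cells (7.28%), so the ratios of its 5 cells with a Ly6c2 UMI are not given.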

How the data were processed

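Single-cell RNA-seq of CD45+ liver cells was made with 10x 3' chemistry, 1 library per group. Per the submitters' processing notes, reads were trimmed with Trim Galore 0.4.3 and mapped with STAR 2.7.7a to GRCm38. Per the study's methods, the authors counted UMIs over exons and introns, filtered cells on UMIs, genes and mitochondrial reads, removed doublets called by scrublet and kept highly variable genes. The authors deposited 3 matrices of scores, 1 per site with both arms together, over 4486, 2669 and 2643 genes. How the scores were made is not given in the sources used here. From the values, each score is scaled per gene within its matrix, capped at 10, with total UMIs regressed out.

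The scores were inverted to UMIs. At least 99.9982% of detected values lay within 0.05 of whole UMIs. Up to 0.161% were capped and are lower bounds, and of the cell totals under 20000 UMIs, which are the denominators of CPM, 79.1% to 88.6% came out whole within 0.05. Larger totals are less exact. On simulated data with 1500 genes and 2345 cells, 99.7% of detected values were recovered exactly. Nfkbia in the adjacent and Cst3 in the micrometastasis matrix were left out because under 90% of their values came out whole. The matrices held between 11.2% and 14.7% of all UMIs, and levels were set as CPM of all UMIs of the cells. Genes outside the matrices were not analysed here, so the genes tested are a selected set.

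T cells were cells with a Cd3 mean of at least 1 and an NK marker mean under 0.5. Genes were named by these rules: members of the fixed lists, the genes of the membership rule, the 5 highest and 5 lowest ratios per comparison among genes with 20 or more UMIs and an interval that left out 1, and the 15 genes highest over other cells. Within lists, several examples were chosen after their values were seen. The members and lists were chosen with earlier results of these data known. Alternatives changed the marker and Cd3 limits, the choice of members, the denominator, the scaling, the UMI minimum and the fold. Python 3.11.15 with numpy 2.4.6, scipy 1.17.1, pandas 2.3.3 and matplotlib 3.10.9 was used, with gene positions from GENCODE M21.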

Additional observations from a re-analysis of the deposited data

Results flagged for a closer look

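In 6 genes the ratio of Tim3-KD over Ctrl in NK cells lay past 2-fold in opposite directions at different sites. With 1 library per group none of these differences between sites was tested. Cd160 was at 3.55 in micrometastasis and 0.350 in adjacent liver. Among members of 3000 to 8000 UMIs Cd160 in micrometastasis was at 2.23 (0.890 to 5.18). Cd7 was at 2.18 and 0.339 in micrometastasis and adjacent liver. Cd226 was at 2.45 in adjacent liver and 0.342 in micrometastasis, Jun at 3.00 and 0.437, and Ltb at 3.35 and 0.0625. Hspa1a was at 29.5 in micrometastasis and 0.424 in macrometastasis. Ltb in T cells had ratios in the same directions as in NK cells, 3.02 in adjacent liver and 0.144 in micrometastasis.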

How the results depend on the processing

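No paired analysis was possible because each group had 1 library, and for the same reason no replicate could be left out. All 3 matrices hold the 4 marker genes, so restricting the rule to shared markers left the members as they were. The ratio of NK shares lay between 0.125 and 0.235 in micrometastasis and between 0.350 and 0.492 in macrometastasis over all member rules and denominators tried, while that of adjacent liver was 0.660 among members, Cd3-high cells and cells chosen on ILC1 genes and 0.734 (0.323 to 1.57) among members and Cd3-high cells. Genes at least 2-fold apart numbered 163, 405, 208, 208 and 131 (adjacent liver, micrometastasis, macrometastasis, micrometastasis over adjacent liver and macro- over micrometastasis in Ctrl). With at least 50 UMIs they numbered 55, 129, 77, 42 and 65, with at least 1 UMI 2329, 1325, 864, 944 and 543, and at a ratio of 1.5 253, 667, 432, 400 and 305. Trimmed-mean scaling moved the share of higher calls from 20.0% to 37.6% in micrometastasis and from 67.9% to 81.2% in macro- over micrometastasis.

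Alternatives on depth, other lineages and single cells were chosen after seeing the data. In members of 3000 to 8000 UMIs the genes numbered 54, 194, 120, 98 and 79. In adjacent liver, leaving out members with UMIs of other lineages, members over 20000 UMIs or the member with most UMIs of the gene gave 78, 73 and 79. In members of 3000 to 8000 UMIs, of which adjacent liver had 1 in Tim3-KD and 15 in Ctrl, directions of genes at least 2-fold apart turned in adjacent liver for Cd7 (1.39), Stmn1 (5.36) and, at 0, Cd226, Fos, Ltb, Bst2, Ly6c2 and Ctsl. They turned in micrometastasis for Hspa1b (0.786), Stmn1 (0.277), Isg15 (0.429) and, at 0, Rrm2, Mki67, Cxcl10 and F13a1. Between sites they turned for Cd7 (1.40), Ifi27l2a (1.61) and Top2a (1.51) in micrometastasis over adjacent liver and for Rrm2 (0) in macro- over micrometastasis. Mki67, Ms4a6c and Ifi30 had no UMI left in adjacent Ctrl there, nor had Ms4a6c and Ifi30 without members over 20000 UMIs, so that their low ratios in micrometastasis over adjacent liver turned with no finite value. In macrometastasis Prf1 (1.24), Ccl4 (1.26) and Ccl3 (1.12), none of them 2-fold apart, turned above 1 in the same range. Without members over 20000 UMIs they turned for Stmn1 (1.39), Top2a (1.83) and Ctsl (0) in adjacent liver, Cxcl10 (0.863) in micrometastasis, and Top2a (1.13) and Mki67 (1.57) in micrometastasis over adjacent liver. Without other lineages they turned for Ctsl, F13a1 and Ms4a6c (each 0) and for Top2a in micrometastasis over adjacent liver (1.15). Without the member with most UMIs of the gene they turned for Ctsl and F13a1 (each 0) and Cxcl10 (0.804). At a marker mean above 2 they turned for Ctsl and Rnase6 (each 0) in adjacent liver and Ebf1 (0.902) in macrometastasis. Cxcl10 in micrometastasis was at 0.831 without members with a Cd3 UMI and 0.905 with members chosen on UMIs, where Il2ra in macrometastasis was at 0.604. The cause was not tested. With 11 and 26 members in adjacent and micro Tim3-KD, counting error and single cells limit the genes of low level.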
